A study of Mus musculus with 9 samples.

Results

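Mast cell genes were followed in the RNA of KLN205 tumors by 9 members of the 19481 genes listed by symbol in the counted table, chosen by name as genes that mark this cell type. The members were 4 granule proteases (*Mcpt4*, *Cma1*, *Cpa3* and *Tpsb2*), 2 subunits of the IgE receptor (*Fcer1a* and *Ms4a2*), the histamine-forming enzyme *Hdc*, the receptor *Kit* and the transcription factor *Gata2*. KLN205 is a mouse lung squamous cell carcinoma line. Its cells, carrying a SMART inducible shRNA, were grown under the flank skin of wild-type female DBA/2 mice, which were 6 to 8 weeks old and immunocompetent, and tumors were resected on day 50. All 9 tumors, controls included, came from mice that drank doxycycline from the time when mean tumor volume had reached 100 mm3. The groups were 3 tumors with the control shRNA (shControl) and 3 each with 2 shRNAs against *Tmprss11b*, a membrane serine protease, named sh2 and sh3 in the labels and shRNA1 and shRNA2 in the paper. Each library was made from a piece of whole tumor, so that carcinoma and host RNA were counted together and the shRNA acts in the injected carcinoma cells, not in the host's mast cells. The study asked whether *Tmprss11b* loss alters the tumor and the immune cells in it, and the comparisons below ask it of the mast cell genes.

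Mast cells arise from bone marrow progenitors, settle in skin and other connective tissue, and depend on the receptor Kit and its ligand there. Their granules hold chymases, tryptase, carboxypeptidase A3 and histamine, bound to heparin proteoglycan, and are released when antigen cross-links IgE on the high-affinity Fc receptor. Mast cells of skin connective tissue are known for *Mcpt4*, *Cma1*, *Cpa3* and *Tpsb2*, whereas *Mcpt1* and *Mcpt2* are known from mucosal mast cells. Basophils share *Fcer1a*, *Ms4a2*, *Hdc*, *Gata2* and some *Cpa3*, and *Kit* is also made by melanocytes and progenitor cells.

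Total counts ranged from 20653219 to 24047784 per tumor, and 3 counts corresponded to 0.125 to 0.145 CPM (counts scaled by library size, with the TMM factor of edgeR), a floor that covers counting error only. *Tmprss11b*, listed as *Tmprss11bnl*, had 18, 51 and 42 counts in control replicates 1 to 3, against 7, 2 and 5 with sh2 and 10, 4 and 5 with sh3, and no shRNA tumor reached the lowest control tumor. Squamous carcinoma markers summed to 1138 to 1920 CPM in the 9 tumors. Control replicate 1 stood apart from the other 8 tumors: 47 genes were over 10 times higher in it than in any other tumor. The same count was 0 to 17 for each of the others. In the labels its library name has another form than the other 8, and what the names stand for is not given. The 5 listed epidermal genes summed to 139.1 CPM there against 5.67 to 9.18 CPM elsewhere. That list was added after seeing the data and holds *Asprv1* and *Dmkn*, named below among the genes most like the members' mean profile. Control replicate 1 was also the highest of all tumors for 7 of the 9 mast cell genes, the exceptions being *Kit* and *Fcer1a*. The share of all genes that were highest in this tumor was not counted. The members' fold changes against control and their correlations are therefore given with and without it.

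Of the 9 members, 7 passed edgeR's filter on low counts, and *Fcer1a* and *Ms4a2* did not. On the deposited TPM scale, which corrects for transcript length, the mean level in the 3 control tumors was highest for *Cma1* at 16.5 ± 7.24 (SD, n = 3), followed by *Mcpt4* at 10.3 ± 3.49 and *Tpsb2* at 9.73 ± 7.78. *Hdc* at 5.03 ± 4.11, *Cpa3* at 4.80 ± 2.13 and *Kit* at 4.27 ± 1.045 TPM came next. Within every control tumor, *Cma1* was above *Mcpt4* and *Tpsb2* was above *Hdc*. The order of *Mcpt4* and *Tpsb2*, of *Hdc* and *Cpa3*, and of *Cpa3* and *Kit* changed between control tumors and was not resolved. *Gata2* (1.64 ± 0.638 TPM), *Fcer1a* (0.517 ± 0.0651 TPM) and *Ms4a2* (0.188 ± 0.204 TPM) each lay below the gene before them in every control tumor.

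*Mcpt4* encodes the connective tissue mast cell chymase and lies on GRCm38 chr14:56059629-56062313, minus strand, in a cluster of granule protease genes. *Cma1*, a second chymase gene of the cluster, lies at chr14:55941451-55944675 on the same strand, and *Cpa3*, the mast cell carboxypeptidase, at chr3:20215620-20242181, minus strand. Their promoters are shown because these 3 proteases had the most negative log2 fold changes with sh2 among the members tested, as given below. The lines give the 250 bases before each RefSeq transcription start of the GRCm38 reference, which is not the DBA/2 sequence, read 5′ to 3′ along the gene, with capitals at any GATA motif.
Mcpt4, chr14:56062311-56062560, minus strand: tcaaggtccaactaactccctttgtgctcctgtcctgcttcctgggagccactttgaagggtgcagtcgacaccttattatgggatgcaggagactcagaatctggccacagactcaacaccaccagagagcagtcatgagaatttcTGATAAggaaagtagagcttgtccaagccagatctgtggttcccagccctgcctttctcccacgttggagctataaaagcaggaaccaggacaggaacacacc
Cma1, chr14:55944676-55944925, minus strand: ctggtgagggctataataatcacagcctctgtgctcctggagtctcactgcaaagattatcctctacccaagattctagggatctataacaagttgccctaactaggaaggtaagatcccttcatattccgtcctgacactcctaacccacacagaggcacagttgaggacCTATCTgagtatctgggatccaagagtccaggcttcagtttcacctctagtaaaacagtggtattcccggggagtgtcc
Cpa3, chr3:20242182-20242431, minus strand: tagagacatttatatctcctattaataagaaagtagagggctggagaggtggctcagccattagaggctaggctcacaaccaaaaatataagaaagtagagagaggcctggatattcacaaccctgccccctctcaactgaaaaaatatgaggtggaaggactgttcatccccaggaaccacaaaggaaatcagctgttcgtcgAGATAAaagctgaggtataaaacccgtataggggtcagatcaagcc
The motif searched was the 4 letters GATA with A or T before and A or G after them, on either strand, which Gata2 and its relatives are known to bind. It began 103 bases before the start in *Mcpt4*, 79 bases in *Cma1*, where it lies on the other strand, and 46 bases in *Cpa3*. RefSeq windows were at hand for 8 members, all but *Tpsb2*, and 6 of the 8 held the motif: these 3, *Hdc*, *Fcer1a* and *Ms4a2*, the last with 3 matches. None of the windows of *Kit* and *Gata2* held it. Among 32851 such windows of all genes, 26.5% held a match. The E-box CATGTG, on either strand, was found in 1 of the 8, *Fcer1a*, and in 12.3% of all windows. A match describes the letters and not binding.

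Of the 7 members tested, *Mcpt4* differed most between shRNA and control tumors. The 3 controls had 140, 73 and 94 reads of it, the sh2 tumors 25, 24 and 26, and the sh3 tumors 57, 29 and 16. On the CPM scale these were 5.96, 3.02 and 3.85 in the controls, 1.05, 1.16 and 1.08 with sh2, and 2.64, 1.47 and 0.684 with sh3. Every shRNA tumor was thus below every control tumor, the 3 sh2 tumors lay close together, and the sh3 tumors were spread out below the controls. The log2 fold change was −1.96 with sh2 (standard error 0.498, a level 3.88-fold lower) and −1.42 with sh3 (standard error 0.488, 2.67-fold lower). Neither passed the threshold, with unadjusted p = 0.00341 and 0.0172 and adjusted p = 0.999 and 0.753 in edgeR's quasi-likelihood test with Benjamini-Hochberg adjustment over 14725 genes. For the mean of both shRNAs the log2 fold change was −1.69 ± 0.401 (standard error), with unadjusted p = 0.00221 and adjusted p = 0.982 in edgeR. Without control replicate 1 the values were −1.64 with sh2 (unadjusted p = 0.0154) and −1.12 with sh3 (unadjusted p = 0.0676), and both shRNA groups still lay below both remaining controls. Of the 50-base stretches of the *Mcpt4* transcript, 5.48% also occur in another gene, the chymase gene *Cma2*, which had at most 5 counts in any tumor.

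**Figure D1:**
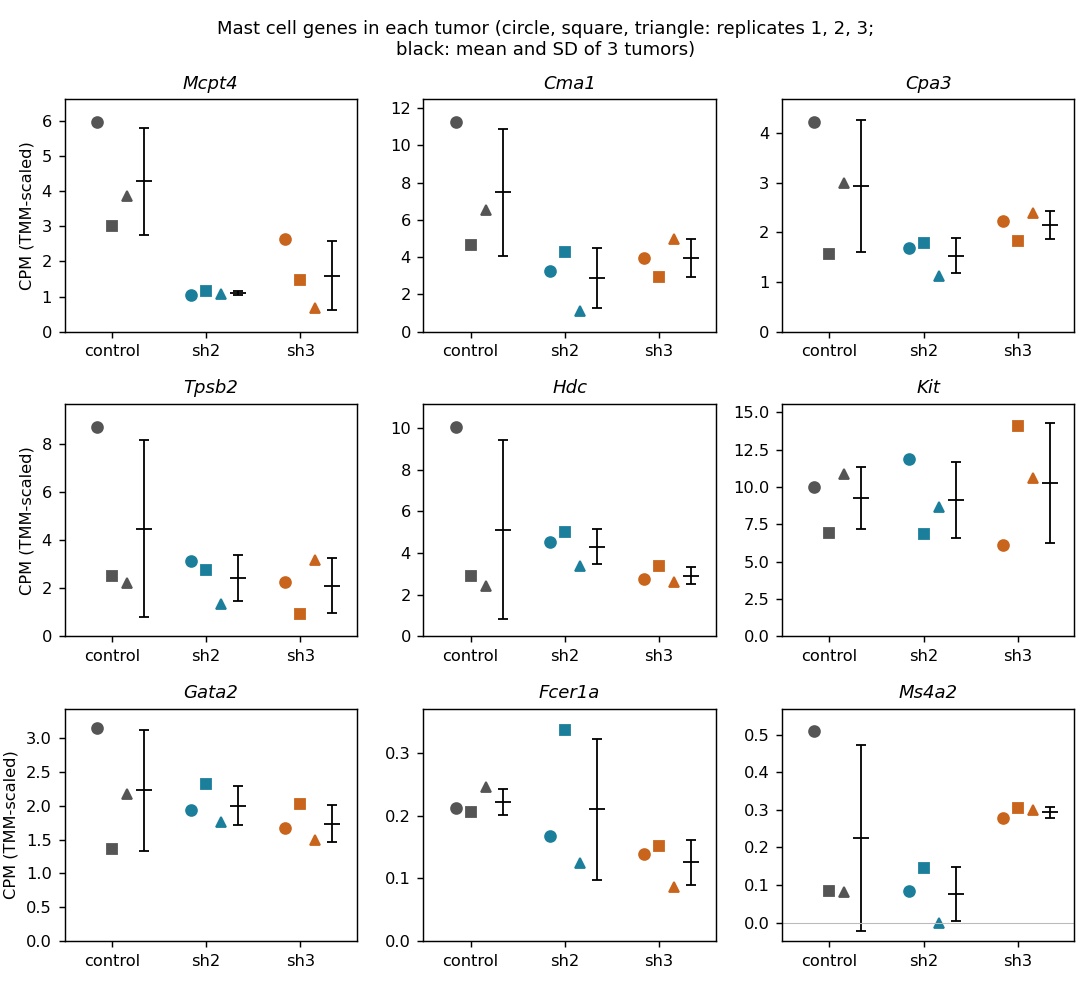
Levels of the 9 mast cell genes in each tumor on the TMM-scaled CPM axis, which starts at 0 except for *Ms4a2*, where the SD reaches below 0. Symbols are tumors and black marks the mean and SD of 3 tumors per group. *Mcpt4* was at 0.684 to 2.64 CPM in the shRNA tumors and at 3.02 to 5.96 CPM in the control tumors, and control replicate 1, the grey circle, was the highest for 7 genes.

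*Cma1* encodes mast cell chymase, also called Mcpt5, whose promoter is widely used to drive Cre in connective tissue mast cells. It had 264, 112 and 160 counts in the control tumors, 78, 88 and 27 with sh2, and 86, 58 and 116 with sh3. In CPM, every sh2 tumor (1.13 to 4.25) was below every control tumor (4.64 to 11.2), the gap to the lowest control being narrow, while the sh3 tumors (2.95 to 4.96) overlapped the controls. The log2 fold changes were −1.37 with sh2 (95% interval −2.53 to −0.22) and −0.91 with sh3 (−2.05 to 0.23), with unadjusted p = 0.0247 and 0.103 and adjusted p = 0.999 and 0.76 in edgeR. Without control replicate 1 they were −0.95 (unadjusted p = 0.116) and −0.51 (unadjusted p = 0.376). The *Cma1* transcript shares 5.38% of its 50-base stretches with other genes, all of them with the predicted gene *Gm48934*.

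*Cpa3* trims peptides in the granule and is among the most abundant mast cell transcripts. The control tumors had 99, 38 and 73 counts, the sh2 tumors 40, 37 and 27, and the sh3 tumors 48, 36 and 56. Control replicate 2, at 1.57 CPM, lay among the sh2 tumors (1.13 to 1.79 CPM) and below all sh3 tumors (1.83 to 2.40 CPM), so the groups overlapped. Its log2 fold change was −0.93 with sh2 (95% interval −1.86 to −0.01, unadjusted p = 0.0487, adjusted p = 0.999, edgeR) and −0.44 with sh3 (−1.36 to 0.47). Without control replicate 1 the values were −0.57 (unadjusted p = 0.22) and −0.10 (unadjusted p = 0.829).

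*Tpsb2*, on GRCm38 chr17:25366305-25369098, plus strand, encodes the mast cell tryptase Mcpt6. Counts were 205, 61 and 54 in the controls, 75, 57 and 32 with sh2 and 49, 18 and 74 with sh3. The control mean rested on replicate 1, at 8.73 CPM, since the other control tumors, at 2.53 and 2.21 CPM, lay inside the range of the shRNA tumors (0.915 to 3.17 CPM). The log2 fold changes of −0.89 (sh2) and −1.08 (sh3) had standard errors of 0.647 and 0.651, and without control replicate 1 they were 0.03 and −0.17. *Tpsab1*, the tryptase gene beside it at chr17:25343245-25345562, had the same shape, with 77 counts in control replicate 1 and 1 to 29 in the other 8 tumors.

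The proteases did not all vary in parallel. Within a tumor, the ratio of *Mcpt4* to *Cpa3* counts, which no scaling of libraries can move and which was chosen after the values were seen, was 1.41, 1.92 and 1.29 in the controls. With sh2 it was 0.625, 0.649 and 0.963 and with sh3 1.19, 0.806 and 0.286, so that every shRNA tumor was below every control tumor. This did not hold against the other proteases. Per *Cma1* count, *Mcpt4* was at 0.53 to 0.652 in the controls, below sh2 replicate 3 (0.963) and sh3 replicate 1 (0.663). Per *Tpsb2* count it was at 0.683 to 1.74 in the controls. That range held sh2 replicate 3 (0.812) and sh3 replicates 1 and 2 (1.16 and 1.61). The ratio of *Cma1* to *Cpa3* counts was 2.67, 2.95 and 2.19 in the controls, 1.95, 2.38 and 1.0 with sh2, and 1.79, 1.61 and 2.07 with sh3, where 1 sh2 tumor lay inside the control range. *Mcpt4* made up 19.8% to 25.7% of the summed counts of the 4 proteases in the controls. Its share was 11.5%, 11.7% and 23.2% with sh2 and 23.8%, 20.6% and 6.11% with sh3, so that by this measure the groups overlapped. The lowest share, 6.11% in sh3 replicate 3, had a 95% Wilson interval of 3.79% to 9.69%, apart from the 17.0% to 22.9% of the lowest control, both for counting error only.

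**Figure D2:**
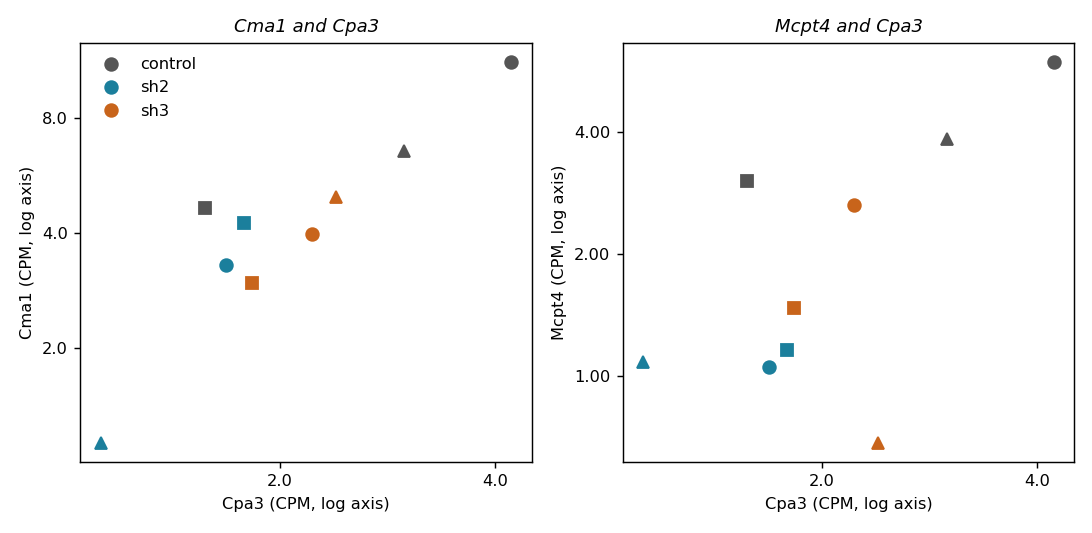
CPM of *Cma1* (left) and *Mcpt4* (right) against *Cpa3*, on log axes, 1 symbol per tumor (circle, square and triangle for replicates 1, 2 and 3). *Cma1* followed *Cpa3* along 1 band, with a Pearson correlation of 0.908, while in the right panel the control tumors lay above the shRNA tumors of like *Cpa3* level and sh3 replicate 3 was lowest at 0.684 CPM.

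*Hdc*, histidine decarboxylase, makes histamine and lies on GRCm38 chr2:126593667-126619299, minus strand. It had 236, 70 and 59 counts in the controls, 107, 104 and 81 with sh2 and 60, 66 and 61 with sh3. Outside control replicate 1 (10.1 CPM), the remaining controls, at 2.90 and 2.42 CPM, were below all sh2 tumors (3.38 to 5.02 CPM) and within or below the sh3 range (2.61 to 3.35 CPM). The log2 fold changes of −0.25 with sh2 and −0.81 with sh3 (standard errors 0.514 and 0.520) became 0.70 and 0.12 without that tumor (unadjusted p = 0.0715 and 0.737, edgeR). Neutrophils and macrophages can also make *Hdc*. The 5 listed neutrophil markers found in the table, of 6, summed to 86.8 to 174.4 CPM in the controls, 99.6 to 182.4 with sh2 and 55.1 to 156.2 with sh3, and control replicate 1, sh2 replicate 2 and sh3 replicate 2 had both the highest *Hdc* and the highest neutrophil sum of their groups. The neutrophil sum was higher in sh2 replicate 2 (182.4 CPM) than in control replicate 1 (174.4 CPM), while *Hdc* was lower. Macrophage markers, 5 of 6 in the table, summed highest of their groups in control replicate 1 (2107 CPM) and sh3 replicate 2 (3783 CPM). In sh2 replicate 2 their sum was the lowest of its group (1118 CPM). The part of neutrophils and macrophages in the *Hdc* values was not tested.

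*Kit*, the receptor for stem cell factor, on GRCm38 chr5:75574916-75656722, plus strand, had 234, 167 and 266 counts in the controls. It had 282, 142 and 207 counts with sh2 and 132, 277 and 248 with sh3. Its level thus ranged from 6.10 to 14.1 CPM with the extremes both among sh3 tumors, and all groups overlapped. The log2 fold change was −0.02 with sh2 (95% interval −0.80 to 0.76) and 0.15 with sh3 (−0.63 to 0.93), intervals that hold changes in either direction, and was 0.04 and 0.19 without control replicate 1. Melanocyte markers, 4 of 6 in the table, summed to at most 0.980 CPM in any tumor, *Tyr* and *Tyrp1* not being listed.

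*Gata2*, a zinc finger factor of mast cell and progenitor identity on GRCm38 chr6:88193891-88207032, plus strand, had 74, 33 and 53 counts in the controls, 46, 48 and 42 with sh2, and 36, 40 and 35 with sh3. Controls spread from 1.37 to 3.15 CPM and enclosed all 6 shRNA tumors, which lay between 1.497 and 2.32 CPM. The log2 fold changes were −0.16 and −0.36, each smaller than its standard error of 0.370 and 0.371, and were 0.18 and −0.05 without control replicate 1.

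The IgE receptor subunits were barely counted. *Fcer1a*, the IgE-binding chain (GRCm38 chr1:173221284-173227214, minus strand), had 5, 5 and 6 counts in the controls, 4, 7 and 3 with sh2 and 3, 3 and 2 with sh3. *Ms4a2*, the signalling beta chain (chr19:11615523-11623719, minus strand), had 12, 2 and 2 counts in the controls, 2, 3 and 0 with sh2 and 6, 6 and 7 with sh3. *Fcer1a* was at 0.0856 to 0.152 CPM in the sh3 tumors, all below the controls at 0.207 to 0.246 CPM. Among genes past the filter, which leaves out *Fcer1a*, 5.44% had every sh3 tumor below every control tumor. Most readings of the 2 subunits lay within a few counts of the floor, and a difference between groups was not resolved at this depth. In edgeR without the filter the adjusted p was at least 0.804 for both genes in every comparison. *Fcer1g*, the gamma chain that macrophages and other myeloid cells also use, had 1021 to 5524 counts.

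As a list, no member passed the threshold against control with sh2, with sh3 or with the mean of both, nor did any between sh3 and sh2, where edgeR called 0.0% of all 14725 genes in each of the 4 comparisons. DESeq2's Wald test and edgeR's likelihood ratio test also called no member in any of them. Of 14678 genes, the Wald test called 1 higher and 1 lower with sh2, 15 and 26 with sh3, and 3 and 6 with the mean of both. Between sh3 and sh2 it called 15 higher and 31 lower of 14107. In the same order, the likelihood ratio test called 0 and 0, 1 and 7, 0 and 8, and 5 and 9 of 14725. At an unadjusted p under 0.05 in edgeR, 3 of the 7 members tested were lower with sh2 (*Mcpt4*, *Cma1* and *Cpa3*), where 1.87% of all genes were lower at that level. With sh3 it was 1 member (*Mcpt4*, against 3.13% of all genes), and with the mean of both it was 2 (*Mcpt4* and *Cma1*, against 2.74%). The median log2 fold change of the 7 was −0.89 with sh2, −0.81 with sh3 and −0.69 with the mean of both, beside medians of 0.01, 0.03 and 0.02 over all genes tested. The comparisons share the same control tumors, so that a high control tumor lowers all of them at once. Without control replicate 1 the members at an unadjusted p under 0.05 were 1, 0 and 1 (*Mcpt4* with sh2 and with the mean of both), against 1.65%, 1.87% and 1.95% of all genes lower at that level. Without that tumor the medians were 0.03, −0.10 and −0.07, and 3, 5 and 4 of the 7 members had a log2 fold change below 0, in place of 7, 6 and 6. In bulk tumors, fewer mast cells and less RNA per mast cell cannot be told apart.

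**Figure D3:**
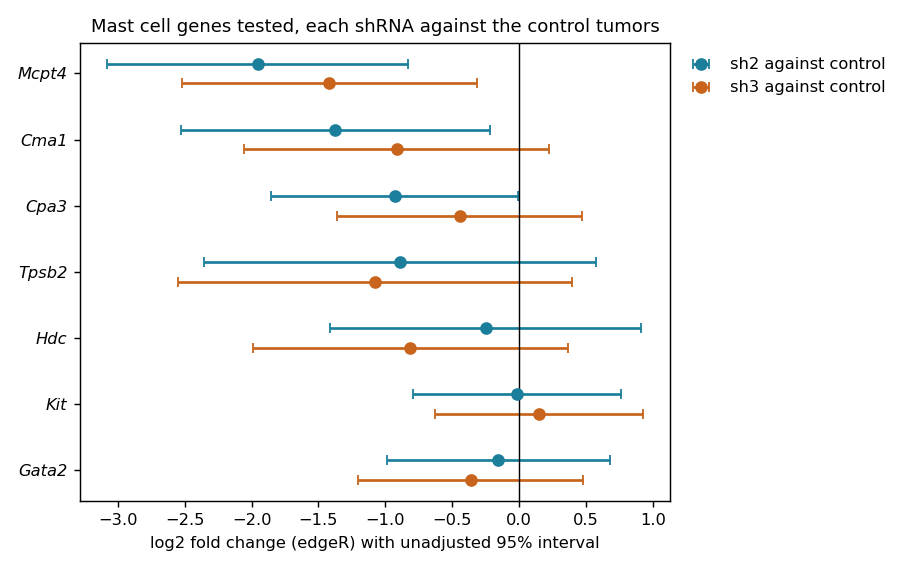
Log2 fold change (edgeR) of the 7 mast cell genes tested, with unadjusted 95% intervals, for sh2 and sh3 against the 3 control tumors, which both comparisons share. The intervals of *Mcpt4* lay below 0 with both shRNAs, from −3.08 to −0.83 and from −2.52 to −0.32, and those of *Cma1* and *Cpa3* only with sh2.

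Counted by separation, 2 of the 7 members (*Mcpt4* and *Cma1*) had every sh2 tumor below every control tumor, as did 5.83% of all genes tested. With sh3 it was 1 member (*Mcpt4*, against 5.44% of all genes), and 1 member, *Mcpt4* again, had all 6 shRNA tumors below all 3 controls, as did 0.958% of all genes. The counts depended on single tumors, and so did the share of all genes, which is larger when a tumor of the comparison is left out. Without control replicate 2 the members were 3, 4 and 3, against 11.7%, 9.30% and 3.01% of all genes. Without sh3 replicate 3 the counts with sh3 and with both were 2 and 2, against 9.27% and 1.44%. Without control replicate 1 they were 2, 1 and 1, against 11.0%, 8.17% and 2.21%.

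**Figure D4:**
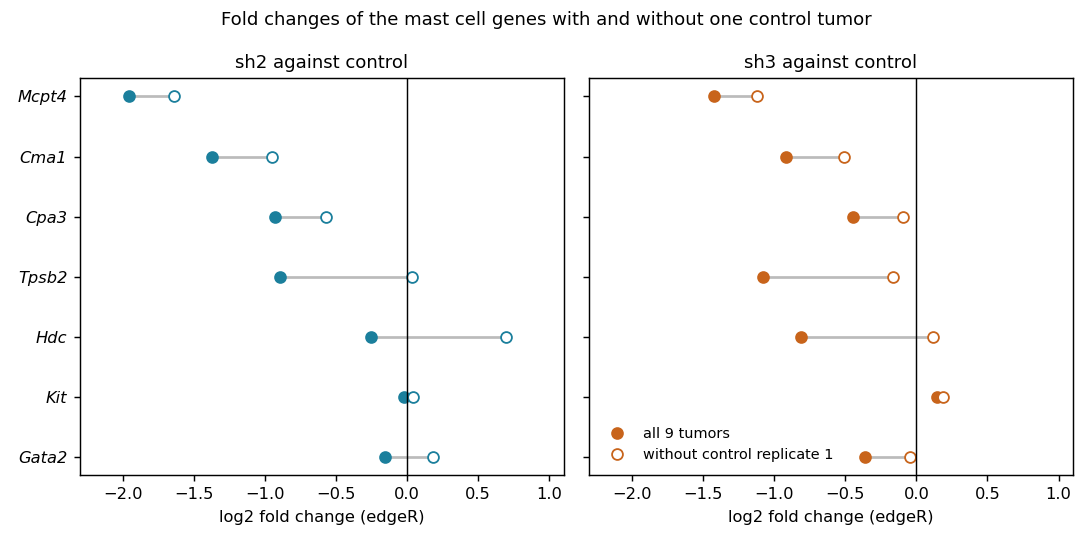
Log2 fold changes (edgeR) of the 7 members with all 9 tumors (filled) and without control replicate 1 (open), for sh2 and sh3 against control. *Mcpt4* remained the lowest at −1.64 and −1.12, while *Tpsb2* and *Hdc* moved most, *Hdc* from −0.25 to 0.70 with sh2.

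The 2 shRNAs were compared directly as well. Between sh3 and sh2 the largest log2 fold changes among members were 0.54 for *Mcpt4* (95% interval −0.58 to 1.65) and −0.56 for *Hdc* (−1.74 to 0.61), and no member had an adjusted p below 0.778 in edgeR. *Cpa3* was higher in every sh3 tumor than in every sh2 tumor, as were 5.51% of all genes, and *Hdc* was lower in every sh3 tumor, as were 4.62% of all genes. The median of the 7 members was 0.17 beside 0.03 over all genes.

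Across the 9 tumors the members did not follow 1 common pattern. Pearson correlations of log2 CPM (prior count 2) ranged from −0.168 for *Mcpt4* with *Kit* to 0.908 for *Cma1* with *Cpa3* among 21 pairs, and the tumors share group and depth. *Cma1* with *Cpa3* held 0.848 in the 8 tumors without control replicate 1 and 0.846 after the group means were removed. *Hdc* with *Gata2* had 0.801, and 0.498 without that tumor. *Hdc* with *Cpa3* went from 0.394 to −0.514, and *Mcpt4* with *Hdc* from 0.317 to −0.479. *Kit* had no correlation above 0.275 with any other member. The mean over the pairs was 0.423 in the 9 tumors and 0.069 in these 8.

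**Figure D5:**
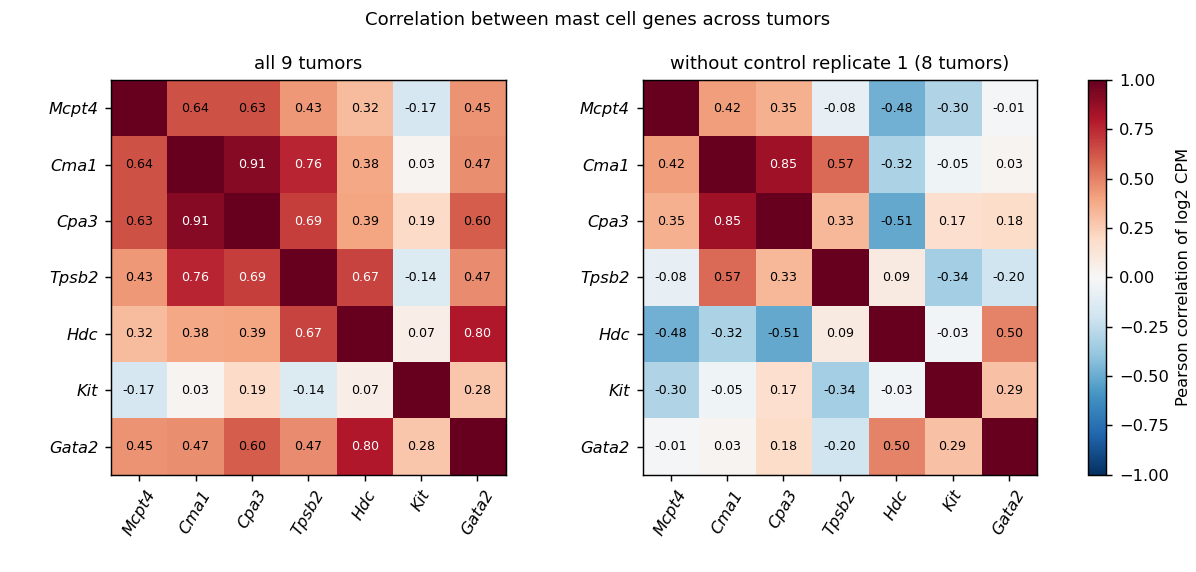
Pearson correlations of log2 CPM between the 7 members over all 9 tumors (left) and over 8 tumors without control replicate 1 (right), red for positive and blue for negative. *Cma1* with *Cpa3* kept 0.848, while *Hdc* turned from positive to negative with *Mcpt4*, *Cma1* and *Cpa3*.

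The genes most like the members' mean profile were mostly not known mast cell genes. Over the 9 tumors, the 10 genes with the highest Pearson correlation with the mean standardized log2 CPM of the 7 members were *Asprv1* (0.933), *Mir7025*, *Capns2*, *Angel1*, *Krt6b*, *Rfng*, *Pla2g4f*, *Inca1*, *Dmkn* and *Plekhm1* (0.866). All 10 were highest in control replicate 1, and *Asprv1*, *Krt6b* and *Dmkn* are genes of keratinocytes: *Krt6b* was at 23.1 CPM there and at 0.0417 to 1.45 CPM in the other tumors. Without that tumor, 1 of the 10, *Inca1*, was again among the 10 most alike. Epidermal genes and mast cell genes were thus both high in the same control tumor, and the part of skin in its tissue piece was not tested.

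Other genes of the mast cell pathway were taken from lists of 59 genes, of which 58 were in the table and 45 were tested. In edgeR, 0 of the 45 passed the threshold in any comparison. At an unadjusted p under 0.05 in edgeR, 4 were lower with sh2 (1.87% of all genes) and 1 was higher (1.64% of all genes). With sh3, 0 were lower (3.13% of all genes) and 0 were higher. In either direction, 976 of all 14725 genes were at that level with sh3. For the mean of both, 1 of the 45, *Mcpt9*, was lower, against 2.74% of all genes. Those lower with sh2 included *Mcpt9*, *Stat5a* and *Tslp*, and the higher one was *Csf2*, which encodes the growth factor GM-CSF. *Mcpt9*, another chymase of the chromosome 14 cluster, had 12, 12 and 15 counts in the controls, 0, 0 and 3 with sh2 and 12, 2 and 0 with sh3, so that sh2 lay below the controls and sh3 overlapped them. Between sh3 and sh2, 4 were higher (*Lat2*, *Fyn* and *Lat* among them, against 3.52% of all genes) and 2 were lower (*Csf2* and *Alox5*, against 3.66%). *Lat2* is an adaptor of IgE receptor signalling also made by B cells and myeloid cells. It had 1174, 447 and 863 counts with sh2 and 3997, 2370 and 1194 with sh3. It was the 1 gene of the lists called by DESeq2's Wald test (log2 fold change 1.73, adjusted p = 0.039, against 0.673 in edgeR's quasi-likelihood test). Over all genes, that Wald test called 15 higher and 31 lower of 14107 between sh3 and sh2.

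The remaining granule proteases and receptors were given no test against *Mcpt4*. *Mcpt2* had 623, 138 and 126 counts in the controls, 196, 224 and 39 with sh2 and 96, 152 and 309 with sh3, again with control replicate 1 highest and the groups overlapping. Its log2 fold changes were −0.85 with sh2 (95% interval −2.67 to 0.96) and −0.56 with sh3 (−2.36 to 1.25). *Mcpt1*, its mucosal neighbour, had 25, 20 and 12 counts in the controls, 81, 12 and 8 with sh2 and 32, 56 and 82 with sh3, and its log2 fold change with sh3 was 1.71 (standard error 0.810, adjusted p = 0.76, edgeR). *Mrgprb1* and *Mrgprb2*, receptors of connective tissue mast cells, were below the filter, with 16, 4 and 15 counts of *Mrgprb1* in the controls and 0 to 6 in the shRNA tumors. *Kitl*, the ligand of Kit, had log2 fold changes of 0.16 and 0.30 with sh2 and sh3, and *Il33*, an alarmin that acts on mast cells, −0.21 and −0.70, all within their standard errors. *Srgn*, the granule proteoglycan core also made by other blood cells, had log2 fold changes of 0.35 and 0.43.

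Summed markers of other cell types are given beside the protease values. No marker of these lists passed the threshold in any comparison with control in edgeR, the lowest adjusted p being 0.999 with sh2 and 0.753 with sh3. All 6 fibroblast markers had log2 fold changes below 0 with each shRNA, with medians of −0.80 (sh2) and −1.18 (sh3) beside 0.01 and 0.03 over all genes. Their sums were 1927 to 3653 CPM in the controls, 1497 to 2576 with sh2 and 823.2 to 1510 with sh3, and control replicate 1 was highest here too. With the mean of both shRNAs, 4 of these 6 were lower at an unadjusted p under 0.05 in edgeR, against 2.74% of all genes. So were 3 of 4 adipocyte, 3 of 6 skeletal muscle and 4 of 4 epidermal markers tested. It was 1 of 6 for endothelial and for squamous carcinoma markers, and 0 of 5 for macrophage and for neutrophil markers. Of 5 adipocyte markers the sum was 23.7 to 50.6 CPM in the controls, 8.16 to 36.2 with sh2 and 8.30 to 17.9 with sh3. Skeletal muscle markers, 6 of 6, ranged from 13.5 to 2629 CPM in the controls and from 1.502 to 853.7 CPM in the shRNA tumors. Of 4 basophil markers, *Mcpt8* had 97, 105 and 54 counts in the controls, 41, 38 and 46 with sh2 and 104, 84 and 64 with sh3, while *Prss34* was at 0 in 8 of 9 tumors, and their sum was 2.42 to 4.60, 1.98 to 2.25 and 2.78 to 4.81 CPM in the 3 groups. The log2 fold changes of *Mcpt8* were −0.96 with sh2 (unadjusted p = 0.0246, edgeR) and 0.14 with sh3. The part of connective tissue around the tumor in the protease values was not tested.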

How the data were processed

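RNA was sequenced from 9 KLN205 tumors, 3 per group, with groups and replicate numbers taken from the labels. Per the submitters' processing notes, the authors checked reads with FastQC, aligned them to mm10 with STAR 2.5.3a, obtained gene counts with featureCounts and ran their comparisons in edgeR. They deposited raw counts for 19481 genes. They also deposited a normalized signal, CPM, which differed from the CPM computed here by a median of at most 0.43% in any tumor (used only as a check), and TPM, used for levels between genes. The table's columns of the authors' own comparisons (log2 fold changes, p-values and FDR for each shRNA) were not used. Libraries were made with a stranded mRNA kit, per the labels, and the name of the deposited table refers to iGenomes genes. The strand setting of the counting and the annotation's release were not given in the sources used here.

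The tests were run in edgeR 4.0.16 under R 4.3.3: filterByExpr by group (14725 genes kept), TMM, robust quasi-likelihood fits of all 9 tumors with 1 coefficient per group, and Benjamini-Hochberg adjustment over all genes tested, with 0.05 as the threshold. Fold changes are for each shRNA and their mean against control, and sh3 against sh2. In a trial on simulated counts, 85.9% (sh2) and 86.3% (sh3) of the genes altered by 2 on the log2 scale passed the threshold. Of genes altered by 1, it was 26.9% (sh2) and 27.6% (sh3). The simulated spread followed a gene's mean level alone, and no simulated tumor stood apart as control replicate 1 did. These shares check the code and do not give the recovery to be had in these 9 tumors. Log2 CPM used a prior count of 2. Tables, Wilson intervals and plots were made with Python 3.11.15, pandas 2.3.3, numpy 2.4.6, scipy 1.17.1 and matplotlib 3.10.9. Promoter sequences came from RefSeq and transcripts and positions from GENCODE M21, both on GRCm38, the assembly also called mm10.

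Total counts were 20653219 to 24047784 per tumor. Replicates of a group came from separate tumors, per the labels, and same-numbered tumors did not deviate together (mean correlation −0.099 over 9 pairs).

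The members and gene lists were chosen with earlier results of these data known. Named were all members, *Tmprss11b*, genes of the pathway lists (1 of which is not reported here by name), the 10 genes most like the members' mean profile, and markers of other cell types beside which a member's values are read. The epidermal list and the protease ratios were added after seeing the data. Alternatives were DESeq2's size factors, DESeq2 1.42.0 with its Wald test, edgeR's likelihood ratio test, no filter, a minimum of 10 counts per tumor, fits of the compared groups alone, the replicate number as a block, plain CPM, a prior count of 0.5, and each tumor left out in turn.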

Additional observations from a re-analysis of the deposited data

Results flagged for a closer look

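*Ms4a2*, the beta chain of the IgE receptor, was set aside for a closer look because its sh2 and sh3 tumors lay on opposite sides of the control mean. All 3 sh2 tumors (0.0843, 0.145 and 0 CPM) were below the control mean of 0.225 CPM, and all 3 sh3 tumors (0.277, 0.305 and 0.299 CPM) were above it. The mean was 0.218 CPM higher with sh3 than with sh2. Among the 14725 genes past the filter, which leaves out *Ms4a2*, 5.51% had every sh3 tumor above every sh2 tumor. That share does not use the control mean, and the share of genes with the 2 shRNAs on opposite sides of it was not counted. These levels rest on 0 to 7 counts per shRNA tumor, and the control mean rests on replicate 1 with 12 counts, since the other control tumors had 2 each. The difference between the 2 shRNAs, with no filter on low counts, had a log2 fold change of 1.91 (standard error 1.01, unadjusted p = 0.088, adjusted p = 0.804, edgeR's quasi-likelihood test).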

How the results depend on the processing

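No mast cell gene passed the threshold in any of the 4 comparisons under any alternative run. The direction of *Mcpt4*, *Cma1* and *Cpa3* against control held in all of them, with log2 fold changes of *Mcpt4* from −2.15 to −1.64 (sh2), from −1.99 to −1.07 (sh3) and from −1.97 to −1.38 (mean of both), and its lowest adjusted p was 0.103, for the mean of both. Leaving out 1 tumor at a time moved the members' median log2 fold change from −1.166 to 0.032 (sh2), from −1.105 to −0.096 (sh3) and from −0.985 to −0.067 (mean of both), the upper end each time being without control replicate 1. The number of members with every tumor below every control tumor ran from 1 to 4 (sh3) and from 1 to 3 (both), where the share of all genes ran from 5.44% to 15.3% and from 1.25% to 3.01%, and the mean correlation between members from 0.069 to 0.484. Directions reversed in single genes, none past the threshold on either side. *Tpsb2* ran from −1.211 to 0.032 (sh2) and from −0.62 to 0.17 (sh3 against sh2), *Hdc* from −0.58 to 0.70 (sh2), from −1.16 to 0.12 (sh3) and from −0.87 to 0.41 (both), and *Gata2* from −0.40 to 0.18 (sh2) and from −0.51 to 0.067 (both). *Kit* ran from −0.26 to 0.16 (sh2), from −0.15 to 0.42 (sh3), from −0.11 to 0.20 (both) and from −0.13 to 0.44 (sh3 against sh2), and *Mcpt4* between sh3 and sh2 from −0.033 to 0.88. For *Tmprss11b*, the mean of both shRNAs passed the threshold only with DESeq2's Wald test (−2.66, adjusted p = 0.0486) and edgeR's likelihood ratio test (−2.63, adjusted p = 0.00249). Of the other pathway genes 1, *Lat2*, did so between sh3 and sh2 with DESeq2's Wald test. That test called 15 of 14107 genes higher and 31 lower there. Why these tests differ was not tested. The replicate numbers mark no shared batch in the labels and did not pair the tumors (mean correlation −0.099). With the replicate block, *Mcpt4* had −1.88 (sh2) and −1.50 (sh3), the members' medians were −0.68 and −0.59, and the number of members past the threshold was 0 as before. At 16 to 140 counts of *Mcpt4* and fewer than 13 of either IgE receptor gene per tumor, 3 tumors a group limit what can be seen.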
